A study of Homo sapiens with 60 samples.

Results

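The genes described here are 10 targets of Wnt signalling and markers of intestinal stem cells: LGR5, ASCL2, EPHB2, EPHB3, AXIN2, RNF43, ZNRF3, NKD1, SOX9 and TCF7. They were chosen by name, and each symbol matched 1 of the 60675 gene identifiers of the count table. All 10 passed the filter on low counts, which kept 16445 genes for testing. The genes were followed through 60 RNA sequencing libraries of HT29, an established human colorectal adenocarcinoma line, cultured for 24 h with herbal preparations. The libraries fell into 22 groups.

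Water extracts of the formulas Palmul-tang and Sibjeondaebo-tang, and ethanol extracts of Poria Cocos (Poria below), Atractylodis Rhizoma (Atractylodes) and Panax Ginseng (Ginseng), were each given at 20, 100 and 500 µg/mL. The ethanol extract of Glycyrrhizae Radix (Glycyrrhiza, licorice) was given at 14, 70 and 350 µg/mL. These 6 preparations had 3 libraries at each dose. An ethanol extract of Angelicae Gigantis Radix (Angelica) had 1 library at each of 12.8, 64 and 320 µg/mL. The reference cultures received DMSO vehicle (3 libraries), labelled 0.1% in the sample records and 2% in the series text. The sample labels give no DMSO content for the treated cultures. The titles of all libraries, vehicle included, carry the label BatchC. Where an extract's IC20 lay under 500 µg/mL, the series text sets the high dose at that IC20, and only Glycyrrhiza and Angelica were given below that dose. All libraries come from a single cell line. The labels do not say whether replicates are separate cultures, so the p-values below measure no more than the variation among libraries, part of which may be technical.

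Wnt ligands bind Frizzled and LRP receptors and protect beta-catenin from a destruction complex built on AXIN and APC, and beta-catenin then works with T-cell factors in the nucleus. In the intestinal crypt this pathway maintains the stem cells at the crypt base, and several of its targets feed back to restrain it. HT29 carries truncating APC mutations, so beta-catenin signalling in this line does not depend on Wnt ligand in the usual way.

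Library totals ranged from 19.31 to 29.62 M counts with a median of 25.05 M. Of 10 epithelial markers, 9 averaged at least 1 CPM (counts scaled to each library's total over the tested genes, with TMM factors), CDX1 being the exception at 0.914 CPM. Of the markers of other cell types, 1 of 6 fibroblast genes (COL1A1, 1.35 CPM), 2 of 6 leukocyte genes (LYZ, 1480.0 CPM, and CD68, 6.43 CPM) and 1 of 5 endothelial genes (PECAM1, 1.7 CPM) averaged at least 1 CPM. TYROBP (leukocytes) and KDR (endothelium) had no counts in any library, and PTPRC (leukocytes) averaged 0.0174 CPM. Of 12 further stem cell markers, 7 averaged at least 1 CPM. These were SLC12A2 (721.0 CPM), CD44 (523.0), PROM1 (121.0), BMI1 (65.7), PTK7 (62.3), RGMB (29.1) and LRIG1 (27.4). OLFM4, SMOC2, MSI1, TNFRSF19 and HOPX stayed below that level, with OLFM4 at 0.00824 CPM. LGR5 and ASCL2 were thus measured in cells whose RNA held some stem cell markers, but almost none of the crypt-base markers OLFM4 and SMOC2. On the first principal component the 3 Glycyrrhiza high-dose libraries lay at 31.4 to 33.4, while the 54 other libraries of the fit reached at most 16.7, the value of vehicle library 3. In bulk RNA, fewer cells of a kind and less RNA per cell cannot be told apart.

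Promoter sequence is shown for 2 of these genes, because EPHB3 had the largest dose difference and a TCF7 start held the only T-cell factor motif found among them. The RefSeq table (GRCh38.p14) held 7 promoter entries for 4 of the genes (EPHB2, EPHB3, RNF43 and TCF7). The T-cell factor motif was searched on both strands as CTTTGAA or its variant CTTTGAT, and likewise as CTTTGTA or its variant CTTTGTT. GC boxes (GGGCGG on either strand) were added after the values had been seen. The 250 bases upstream of EPHB3 (chr3:184561535-184561784, plus strand) held no T-cell factor motif and 3 GC boxes, in capitals. Those upstream of the TCF7 start (chr5:134123368-134123617, plus strand) held 1 T-cell factor motif, in capitals, which reads on the minus strand and begins 50 bases before the start.
EPHB3: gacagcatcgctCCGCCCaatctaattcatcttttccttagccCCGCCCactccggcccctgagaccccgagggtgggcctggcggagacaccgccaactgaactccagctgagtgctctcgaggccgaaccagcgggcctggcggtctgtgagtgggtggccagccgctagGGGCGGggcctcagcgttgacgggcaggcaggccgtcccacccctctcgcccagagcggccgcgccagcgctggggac
TCF7: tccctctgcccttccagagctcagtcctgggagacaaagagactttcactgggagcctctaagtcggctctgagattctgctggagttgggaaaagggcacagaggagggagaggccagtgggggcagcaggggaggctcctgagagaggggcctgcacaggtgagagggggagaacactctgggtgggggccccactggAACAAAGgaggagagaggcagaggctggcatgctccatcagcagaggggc
Of all 35116 promoters in the table, 12% held such a T-cell factor motif in the same 250 bases and 42.6% held a GC box. Over whole entries of 300 bases the motif share was 13.8%, and 1 of the 7 entries of these genes held one. A match describes letters and is no evidence of binding.

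Per kilobase of exon (GENCODE release 29), RNF43 was the most abundant of the 10 genes at 44.0 ± 1.88 CPM per kb, followed by SOX9 at 39.2 ± 3.23 (SD over 57 libraries). ZNRF3 averaged 16.3 ± 0.671 and AXIN2 14.6 ± 1.13 CPM per kb. LGR5 averaged 7.96 ± 0.651 and TCF7 7.47 ± 0.561 CPM per kb. EPHB3 stood at 5.49 ± 0.781, ASCL2 at 2.04 ± 0.283, EPHB2 at 0.303 ± 0.0377 and NKD1 at 0.0608 ± 0.014 CPM per kb. The order was fixed in every library for most neighbours, but the ranges of RNF43 and SOX9, of ZNRF3 and AXIN2, of LGR5 and TCF7, and of TCF7 and EPHB3 overlapped. LGR5 lay above TCF7 in 43 of 57 libraries. NKD1 rested on 12 to 41 counts per library, EPHB2 on 51 to 130 and ASCL2 on 45 to 122, so their differences carry wide errors. RNF43 shares 20.3% of its exon bases with the antisense gene TSPOAP1-AS1, which averaged 14.0 CPM, and no source used here says whether counting used strand, so reads of the pair may not be told apart. On the same strand, GENCODE places an unnamed gene over 57.6% of RNF43's exon bases (not analysed here), another over 25.2% of AXIN2's, which did not pass the filter on low counts, and SUPT4H1 over 1.9% of RNF43's, so reads there are uncertain whatever the strand setting. TCF7 shares 2.1% with SKP1 on the opposite strand.

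With Glycyrrhiza at 350 against 14 µg/mL, 4 of the 10 were called lower and 0 higher. Among all tested genes 24.9% were called in that comparison, 10.9% as lower, and 6 of the 10 genes had high and low groups that did not overlap, as did 37.5% of all tested genes. With Ginseng 1 of the 10 was called higher, where 2.52% of all genes were called, 1.29% as higher. With Palmul-tang, Sibjeondaebo-tang, Poria and Atractylodes 0 of the 10 were called by edgeR, where 0.152%, 0.371%, 1.85% and 3.95% of all genes were called. DESeq2 also called 0 of the 10 in each, and at an unadjusted p under 0.05 (edgeR) these comparisons held 1, 1, 3 and 4 of them. Of all 16445 tested genes, 1084, 1814, 2134 and 2498 had such a p, in the same order of extracts. The median log2 fold change of the 10 genes was -0.09 for Glycyrrhiza, with -0.01 over all genes, and between -0.08 and 0.04 for the 5 other extracts.

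**Figure D1:**
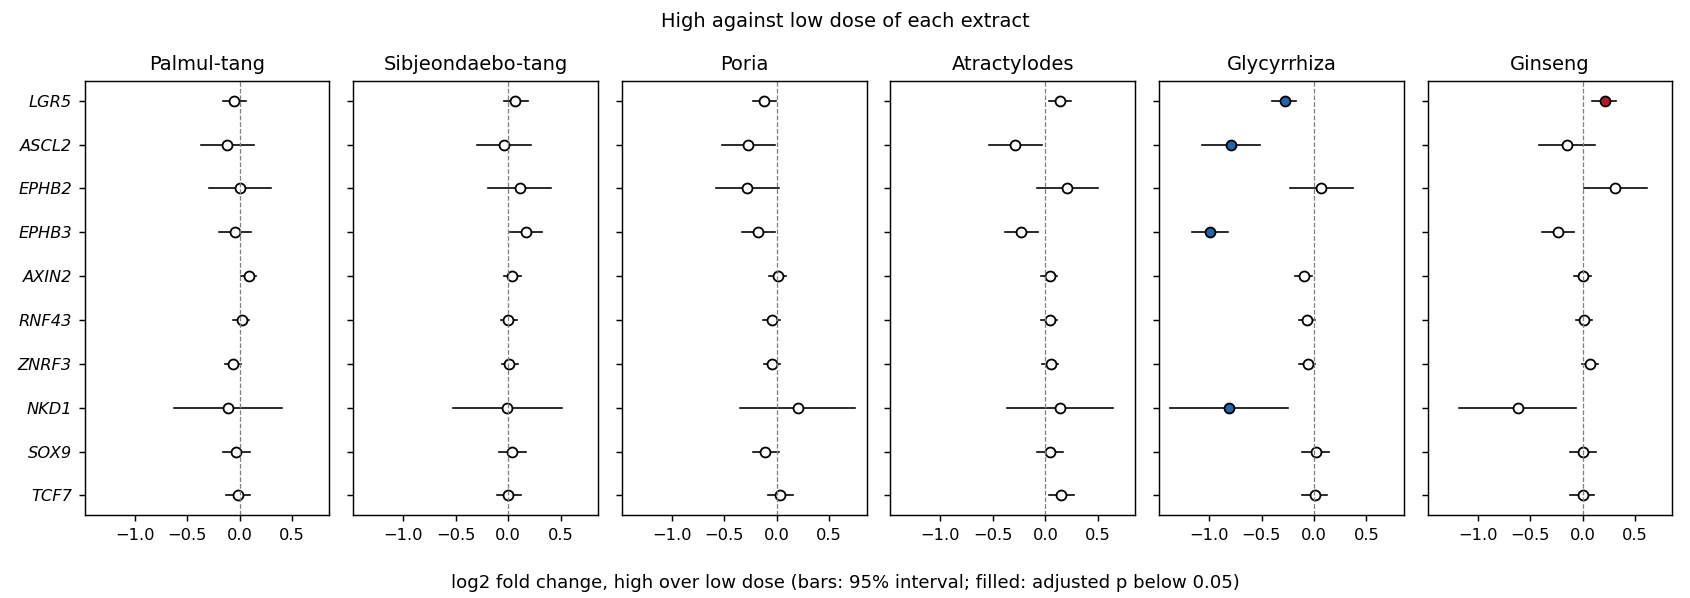
Log2 fold change of each of the 10 genes (rows) between the high and the low dose of 6 extracts (panels), with 95% intervals of the edgeR fit over 57 libraries; filled points passed an adjusted p of 0.05, blue where lower and red where higher at high dose. Filled points stand in the Glycyrrhiza panel (EPHB3, ASCL2, NKD1 and LGR5, all lower) and in the Ginseng panel (LGR5, higher).

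LGR5 encodes a receptor for R-spondins that marks crypt-base stem cells, and it is itself a Wnt target. With Glycyrrhiza it had 34.1, 36.2 and 33.4 CPM at 350 µg/mL, against 40.7, 42.4 and 42.8 CPM at 14 µg/mL. Every high-dose library lay below every low-dose library, and the 70 µg/mL libraries at 41.8, 42.5 and 42.9 CPM lay with the low dose. The log2 fold change was -0.28 ± 0.06 (SE), adjusted p = 0.00014. With Ginseng LGR5 went the other way, with 49.5, 45.1 and 45.5 CPM at 500 µg/mL, against 42.2, 37.2 and 42.1 CPM at 20 µg/mL. That difference was 0.21 ± 0.06 on the log2 scale (adjusted p = 0.03). It was no longer called without Ginseng high-dose replicate 1 (0.16, adjusted p = 0.26) or low-dose replicate 2 (0.15, adjusted p = 0.21), or when the 6 libraries were fitted alone (adjusted p = 0.23).

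With high-dose Glycyrrhiza LGR5 was called lower than in vehicle, whose libraries held 40.3, 40.6 and 42.4 CPM (log2 fold change -0.25 ± 0.06, adjusted p = 0.00059). It was called higher with Atractylodes at 500 µg/mL, where the libraries held 45.3, 51.6 and 49.1 CPM (0.24 ± 0.06, adjusted p = 0.001). With Ginseng at 500 µg/mL it was also higher (0.19 ± 0.06, adjusted p = 0.017). The Ginseng call was lost without vehicle replicate 1 or 2 (adjusted p = 0.05 and 0.055) and without Ginseng replicate 1 (adjusted p = 0.13). For Palmul-tang, Sibjeondaebo-tang and Poria the values were 0.05, 0.08 and -0.09, none of them called.

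Poria and Atractylodes have sample codes with the same first number, as do Palmul-tang and Sibjeondaebo-tang. That number is called the set number here, and the labels do not say what it stands for. These pairs were compared at 500 µg/mL without the vehicle. Among the 10 genes only LGR5 was called between Poria and Atractylodes, a comparison that called 0.985% of all genes, 0.45% as lower with Poria. It had 36.6, 39.1 and 40.4 CPM with Poria, against 45.3, 51.6 and 49.1 CPM with Atractylodes, and the groups did not overlap. The share of all tested genes without overlap there was not computed. For LGR5 the log2 fold change was -0.33 ± 0.05 (adjusted p = 0.00013). Between Palmul-tang and Sibjeondaebo-tang edgeR called 0 of the 10 genes and 0% of all genes, while 918 genes, 0 of these 10 among them, had an unadjusted p under 0.05, and DESeq2 also called 0 of the 10. The 95% interval of the log2 difference there was -0.15 to 0.08 for LGR5, -0.28 to 0.03 for EPHB3 and -0.48 to 0.57 for NKD1.

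ASCL2 is a basic helix-loop-helix transcription factor that controls the stem cell programme of the crypt base. With Glycyrrhiza it had 2.1, 2.31 and 3.03 CPM at 350 µg/mL, against 4.47, 4.34 and 4.07 CPM at 14 µg/mL. The medium dose held 3.19, 3.68 and 3.76 CPM, so the 3 doses were ordered without overlap between libraries. How many of all tested genes were ordered in this way was not computed. The log2 fold change of high over low dose was -0.79 ± 0.14 (adjusted p = 1.1e-05). Values with the 5 other extracts were also below 0, from -0.29 ± 0.13 with Atractylodes to -0.04 ± 0.13 with Sibjeondaebo-tang, and none was called. High-dose ASCL2 was lower than vehicle with Glycyrrhiza (-0.62 ± 0.14, adjusted p = 0.00057), the vehicle libraries holding 3.22, 3.97 and 4.28 CPM.

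**Figure D2:**
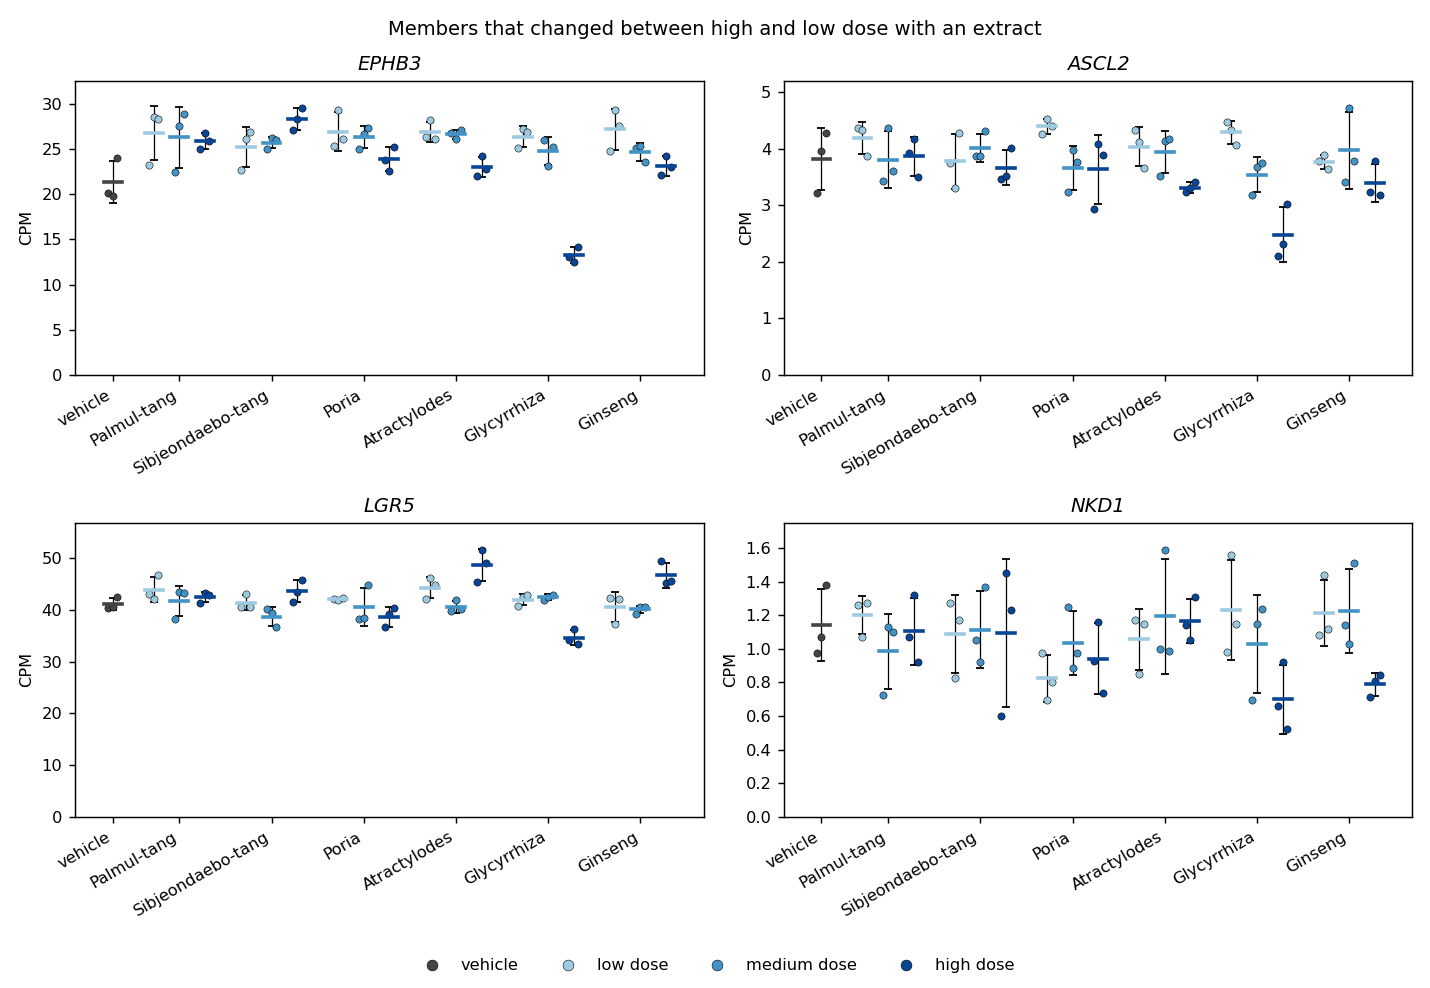
CPM of EPHB3, ASCL2, LGR5 and NKD1 in each library (points) of vehicle and of the low, medium and high dose of 6 extracts; bars are group means and whiskers are SD over 3 libraries. The Glycyrrhiza high-dose libraries of EPHB3 sit at 12.5 to 14.2 CPM, below all other libraries shown for this gene, and LGR5 is lowest with the same treatment.

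EPHB2 and EPHB3 are receptor tyrosine kinases of the Eph family that Wnt signalling induces in crypt cells, where their ephrin-B ligands help to sort cells along the crypt. EPHB3 had the largest change of the 10 genes. With Glycyrrhiza it had 13.1, 12.5 and 14.2 CPM at 350 µg/mL, against 25.1, 27.2 and 26.9 CPM at 14 µg/mL. At 70 µg/mL the libraries held 26.0, 23.1 and 25.3 CPM, so the difference lay between the medium and the high dose. High-dose EPHB3 was 0.504 times the low-dose level, a log2 fold change of -0.99 ± 0.08 (adjusted p = 2e-13).

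With the other extracts EPHB3 moved less. With Atractylodes it had 22.0, 24.2 and 22.8 CPM at high dose, against 26.4, 28.2 and 26.1 CPM at low dose, and with Ginseng 22.1, 24.3 and 23.0 CPM at high dose, against 24.8, 29.3 and 27.6 CPM at low dose. Neither pair of groups overlapped, as held for 20.9% of all tested genes with Atractylodes and 15.7% with Ginseng. Both had a log2 fold change of -0.23 ± 0.08, which did not pass the adjustment (adjusted p = 0.089 for Atractylodes and 0.11 for Ginseng). Both passed it with the replicate number as a block, at adjusted p = 0.027 and 0.037. Poria gave -0.18 ± 0.08, Palmul-tang -0.04 ± 0.08 and Sibjeondaebo-tang 0.17 ± 0.08, none called.

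High-dose EPHB3 stood on both sides of vehicle. With Glycyrrhiza it was lower, at the values above, against 20.2, 19.8 and 24 CPM in vehicle (-0.68 ± 0.09, adjusted p = 1.8e-08). With Sibjeondaebo-tang it had 27.1, 28.4 and 29.6 CPM and was higher (0.41 ± 0.08, adjusted p = 1e-04). With Palmul-tang it had 25.0, 26.8 and 25.9 CPM and was higher by 0.28 ± 0.08 (adjusted p = 0.0083), a call lost without vehicle replicate 2 (0.24, adjusted p = 0.064). Of all 54 treated libraries, 40 lay above the highest vehicle library and 3, all high-dose Glycyrrhiza, below the lowest. The share of all tested genes with such a spread was not computed, but 14.7% were called higher at the mean low dose than in vehicle. EPHB2 did not pass the test in any comparison. Its group means ran from 3.29 CPM with high-dose Poria to 4.43 CPM with high-dose Ginseng, against 3.73 ± 0.227 CPM in vehicle, and its log2 fold change with Glycyrrhiza was 0.07 ± 0.15 between high and low dose.

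AXIN2, RNF43, ZNRF3 and NKD1 are Wnt targets that act as brakes on the pathway. AXIN2 is a scaffold of the destruction complex, RNF43 and ZNRF3 are membrane ubiquitin ligases that remove Frizzled receptors from the cell surface, and NKD1 binds Dishevelled proteins. AXIN2 fell below vehicle with all 6 extracts at high dose. The 54 treated libraries lay between 66.9 and 81.7 CPM with a median of 74.9 CPM, against 100, 102 and 89.6 CPM in vehicle. All 54 lay below the lowest vehicle library, at the low doses too. How many of all tested genes lay in this way was not computed, but 13.9% of them were called lower at the mean low dose than in vehicle. High-dose log2 fold changes against vehicle ran from -0.51 ± 0.04 with Glycyrrhiza (adjusted p = 3.7e-15) to -0.28 ± 0.04 with Palmul-tang (adjusted p = 5.6e-07).

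**Figure D3:**
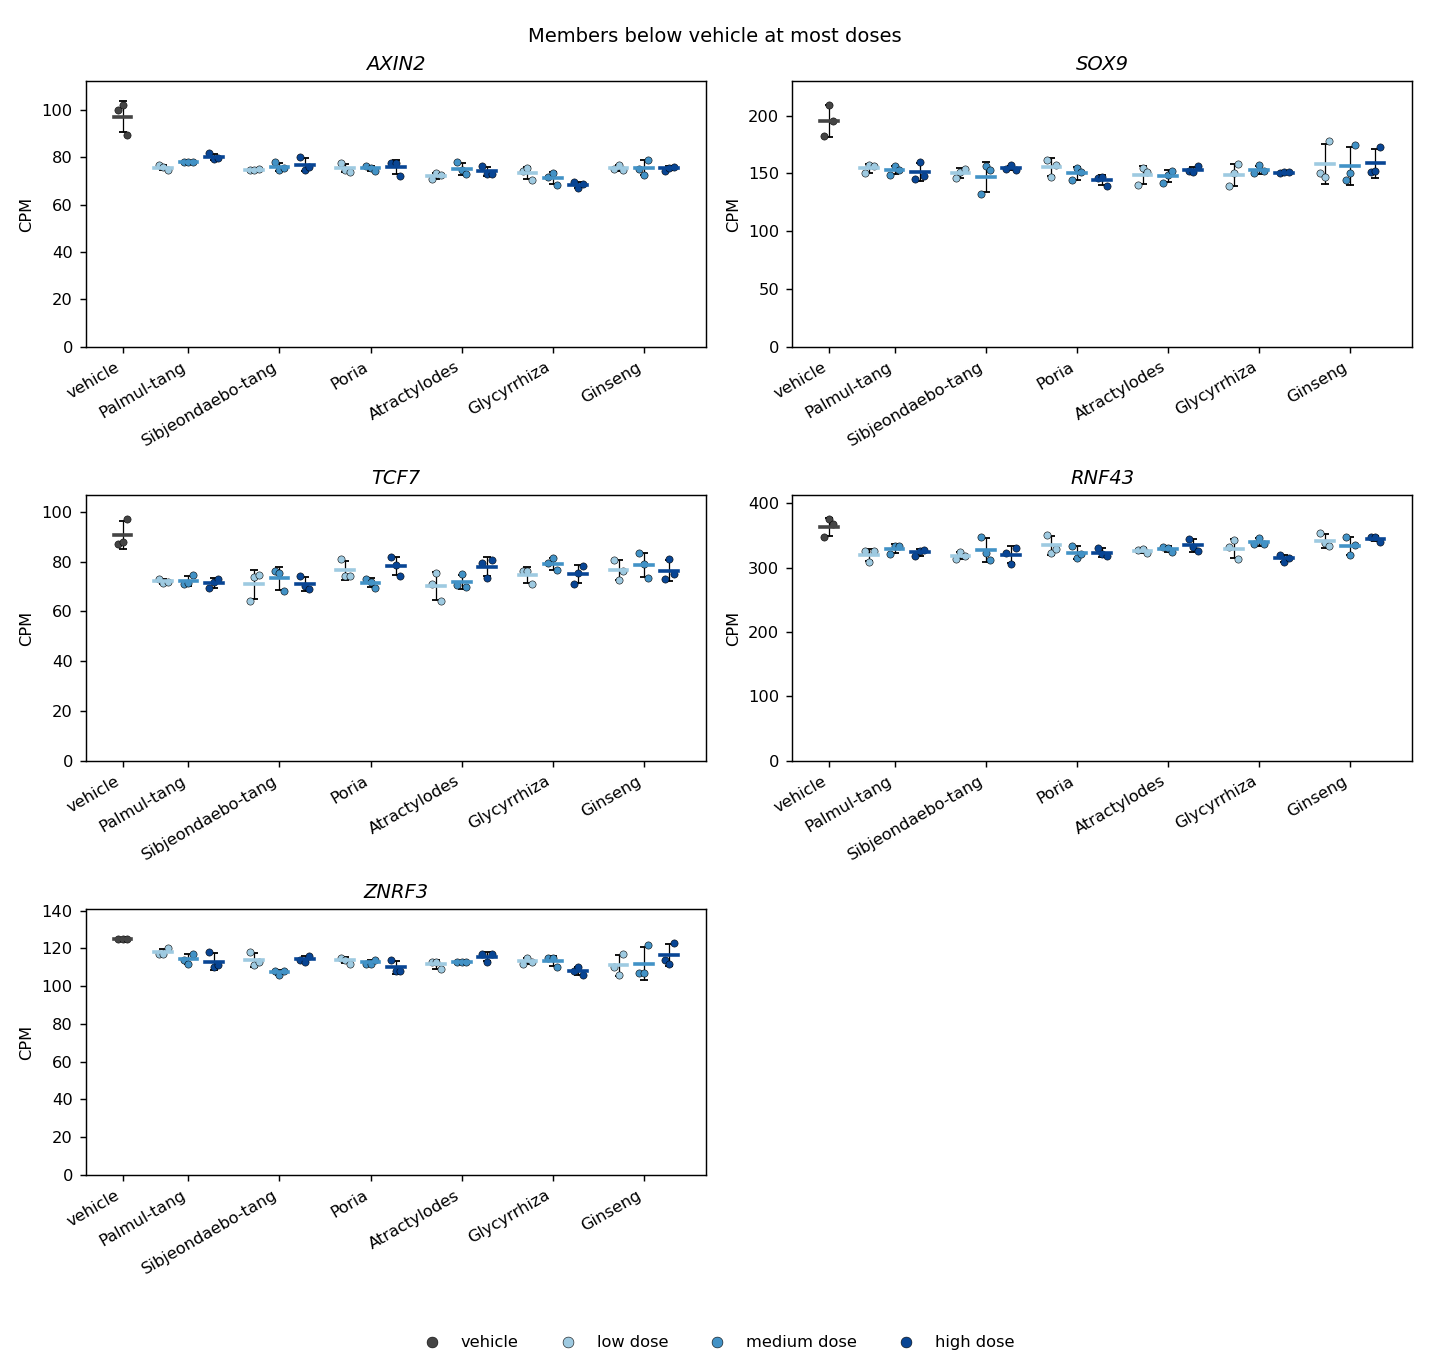
CPM of AXIN2, SOX9, TCF7, RNF43 and ZNRF3 in each library (points) of vehicle and of 3 doses of 6 extracts; bars are group means and whiskers SD over 3 libraries. For AXIN2, SOX9, TCF7 and ZNRF3 all 54 treated libraries lie below the lowest vehicle library, and for RNF43 50 of them do, with little difference between doses. The share of all tested genes that lie in this way was not computed.

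Between doses AXIN2 differed less. With Glycyrrhiza it had 69.4, 66.9 and 68.9 CPM at high dose, against 74.3, 75.3 and 70.3 CPM at low dose, a log2 fold change of -0.10 ± 0.04 that missed the threshold (adjusted p = 0.054). It passed with the replicate number as a block (adjusted p = 0.035) and with a block of set and number (0.022). For the 5 other extracts the high against low values lay between 0.00 and 0.09. RNF43 was lower than vehicle with 5 of 6 extracts at high dose (log2 fold changes of -0.21 to -0.12), and with Ginseng at -0.07 ± 0.04 it was not called. The treated libraries of RNF43 lay between 305.0 and 354.0 CPM, against 348, 375 and 368 CPM in vehicle. ZNRF3 was lower with all 6 extracts (-0.21 to -0.11), at 106.0 to 123.0 CPM in treated libraries, against 125 CPM in each vehicle library. It was called with 5 of 6 under RLE scaling, 3 of 6 when the compared groups were fitted alone and 2 of 6 with no filter on low counts. Calls for the smaller of these changes did not hold in every fit that left out 1 library. With Atractylodes the RNF43 call (adjusted p = 0.02) was lost without vehicle replicate 2 or 3 or Atractylodes replicate 2 or 3, and the ZNRF3 call (adjusted p = 0.029) without any of the vehicle replicates or Atractylodes replicate 2. With Sibjeondaebo-tang the ZNRF3 call was lost without Sibjeondaebo-tang replicate 2 (-0.11, adjusted p = 0.054). With Ginseng the ZNRF3 call (adjusted p = 0.048) was lost without any of the vehicle replicates or Ginseng replicate 1 or 2. For Atractylodes and Ginseng the values without them ran from -0.11 to -0.07, with adjusted p of 0.067 to 0.26.

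NKD1 was the least expressed of the 10 genes. With Glycyrrhiza it had 0.658, 0.922 and 0.52 CPM at 350 µg/mL, against 0.984, 1.56 and 1.15 CPM at 14 µg/mL, and the groups did not overlap. The log2 fold change was -0.81 ± 0.28 (adjusted p = 0.028). The call was lost without high-dose replicate 1 or 3 or low-dose replicate 2 (-0.77, -0.64 and -0.62, adjusted p = 0.087, 0.15 and 0.16) and with DESeq2 (adjusted p = 0.051). With Ginseng the high-dose libraries also lay below the low-dose ones (0.713, 0.807 and 0.846 CPM, against 1.08, 1.44 and 1.12 CPM). The NKD1 difference with Ginseng was not called (-0.62 ± 0.28, adjusted p = 0.29), and 15.7% of all tested genes had Ginseng groups without overlap.

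SOX9 is a transcription factor of crypt progenitors and Paneth cells, and TCF7 encodes TCF-1, a partner of beta-catenin on DNA. Both were lower than vehicle with all 6 extracts at high dose and neither was called between doses of any extract. SOX9 had 132.0 to 178.0 CPM in treated libraries with a median of 151.0 CPM, against 182, 209 and 195 CPM in vehicle. Its high-dose log2 fold changes ran from -0.44 ± 0.06 with Poria (adjusted p = 6.6e-07) to -0.30 ± 0.06 with Ginseng (adjusted p = 0.00044). TCF7 had 64.2 to 83.4 CPM in treated libraries with a median of 74.2 CPM, against 87.2, 87.9 and 97 CPM in vehicle. Its log2 fold changes ran from -0.35 ± 0.06 with Sibjeondaebo-tang to -0.21 ± 0.06 with Poria, and the Poria and Atractylodes calls were lost without vehicle replicate 3 (adjusted p = 0.063 and 0.066).

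Counted over the 10 genes, the high dose of Glycyrrhiza called 0 higher and 8 lower than vehicle, where 34.3% of all tested genes were called, 15.5% as lower. Palmul-tang called 1 higher and 5 lower, where 21.7% of all genes were called, 11.7% as higher and 9.95% as lower. Sibjeondaebo-tang called 1 higher and 5 lower, where 27.3% of all genes were called, 14.2% as higher and 13.1% as lower. Atractylodes called 1 higher and 5 lower, where 22.5% of all genes were called, 11.9% as higher and 10.6% as lower. Poria called 0 higher and 5 lower, where 25% of all genes were called, 11.6% as lower. Ginseng called 1 higher and 4 lower, where 18.8% of all genes were called, 10.3% as higher and 8.54% as lower. The 6 comparisons share the 3 vehicle libraries, so they do not repeat each other independently. The low doses already differed: averaged over the 6 extracts, 1 of the 10 genes was higher and 5 were lower at low dose than in vehicle, where 28.6% of all genes were called, 14.7% as higher and 13.9% as lower. These were EPHB3 (0.32 ± 0.06) as higher, and AXIN2 (-0.38 ± 0.03), SOX9 (-0.36 ± 0.05), TCF7 (-0.30 ± 0.04), RNF43 (-0.15 ± 0.03) and ZNRF3 (-0.14 ± 0.03) as lower.

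The vehicle libraries have sample codes of another form, with no set number in the sense used here. A difference from vehicle therefore cannot be told apart from a difference between sets of libraries. Nor can it be told apart from a difference in DMSO, as the sample labels give no DMSO content for the treated cultures. The mitochondrial share of counts moved with the same contrast. It averaged 6.83% to 8.83% in the 18 treated groups, against 10.2% ± 1.36 in vehicle (SD, n = 3). With that share as a covariate AXIN2 and SOX9 were still called lower with all 6 extracts (log2 fold changes of -0.52 to -0.30 and -0.33 to -0.21), while RNF43, ZNRF3 and TCF7 were each called with 3.

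**Figure D4:**
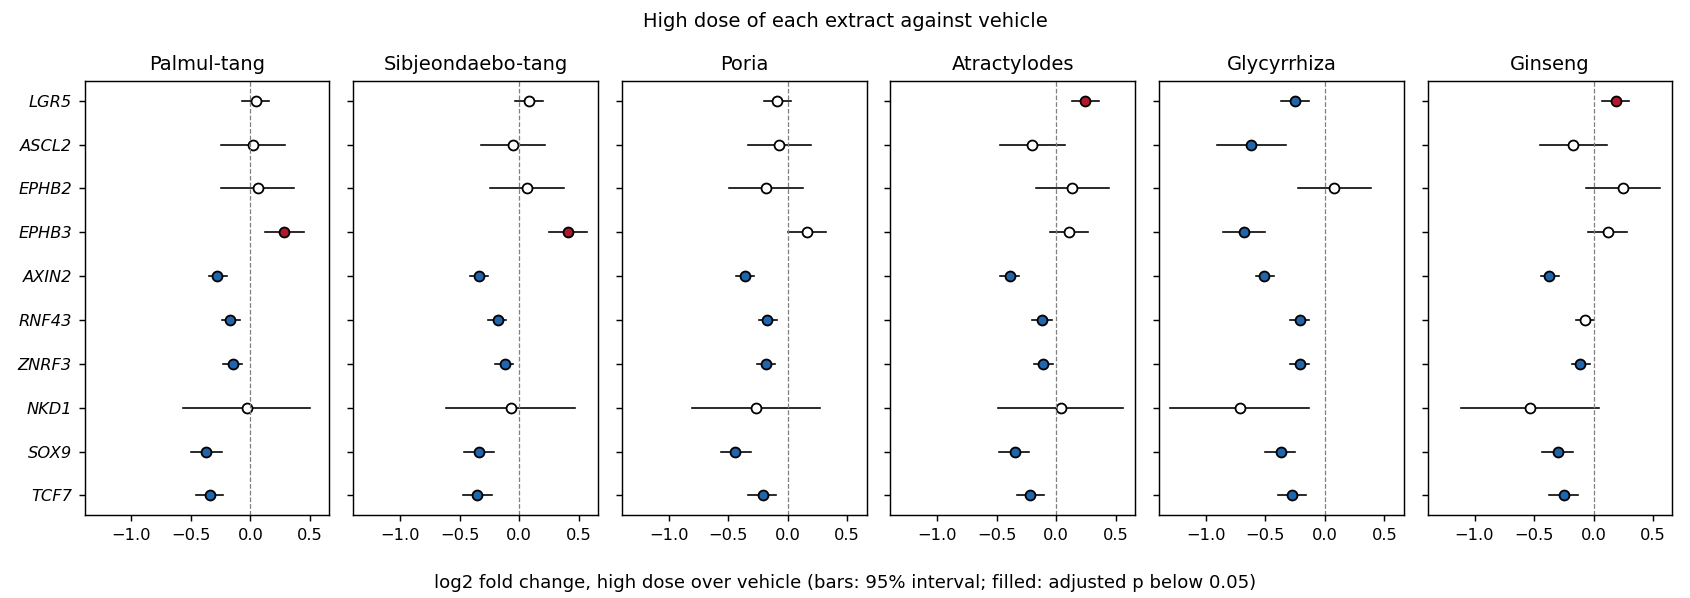
Log2 fold change of each of the 10 genes (rows) between the high dose of 6 extracts (panels) and the 3 vehicle libraries, with 95% intervals of the edgeR fit; filled points passed an adjusted p of 0.05, blue where lower and red where higher with the extract. AXIN2, ZNRF3, SOX9 and TCF7 are blue in all 6 panels, and EPHB3 is red with the formulas Palmul-tang and Sibjeondaebo-tang and blue with Glycyrrhiza.

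Averaged over the 6 extracts, the medium dose called 0 of the 10 genes against the low dose, where 0.681% of all genes were called, and DESeq2 also called 0. Among the 10 genes only LGR5 had an unadjusted p under 0.05 by edgeR there (0.012), as did 1885 of all 16445 tested genes. Without Glycyrrhiza the medium dose also called 0 of the 10 genes, where 0.304% of all genes were called. Again 1 of the 10, LGR5, had an unadjusted p under 0.05 by edgeR (0.0043), as did 1621 of all tested genes. The high dose called 2 lower and 0 higher against the low dose, where 21.5% of all genes were called, 10.1% as lower. These were ASCL2 (-0.28 ± 0.05, adjusted p = 7.9e-05) and EPHB3 (-0.25 ± 0.03, adjusted p = 2.6e-08). Without Glycyrrhiza the same 2 genes were called, at -0.17 and -0.10 (adjusted p = 0.03 and 0.033), where 16.1% of all genes were called, 7.76% as lower.

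The size of the high against low difference depended on the extract for 3 of the 10 genes, where 12.4% of all genes passed the test of that difference. These were EPHB3 (adjusted p = 1.7e-09), LGR5 (adjusted p = 3.5e-05) and ASCL2 (adjusted p = 0.041), whose call was lost in 10 of 36 fits that left out 1 library, with adjusted p up to 0.24 without Glycyrrhiza high-dose replicate 1. Without Glycyrrhiza the test called 0 of the 10 genes by edgeR, where 0.426% of all genes passed. At an unadjusted p under 0.05 it held 2 of the 10, LGR5 and EPHB3 (0.00077 and 0.0021), and 981 of all tested genes. Set directly against the mean of the 5 other extracts, in a comparison added after the data had been seen, the Glycyrrhiza effect was lower for 4 of the 10 genes, where 21.5% of all genes were called, 9.19% as lower. The differences were -0.89 ± 0.09 for EPHB3, -0.62 ± 0.15 for ASCL2, -0.33 ± 0.06 for LGR5 and -0.13 ± 0.04 for AXIN2, the last a call lost without Glycyrrhiza low-dose replicate 1 or 2 or high-dose replicate 2 (-0.12 in each, adjusted p = 0.069 to 0.075).

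The rest of the pathway did not move in a single direction with Glycyrrhiza at 350 against 14 µg/mL, a comparison in which 24.9% of all tested genes were called, 10.9% as lower. Of 20 tested further Wnt targets of colorectal cells, 7 were higher and 6 lower, with a list median of 0.03 and an all-gene median of -0.01. Higher were VEGFA (an angiogenic growth factor, 1.00 ± 0.04) and MET (the hepatocyte growth factor receptor, 0.54 ± 0.03), and lower were SP5 (a transcription factor induced by Wnt, -0.54 ± 0.08) and MMP7 (a matrix protease, -0.46 ± 0.09). A further list joined stem cell markers with CDK6, Eph receptors and ephrin-B ligands. Of its 13 tested genes 5 were higher and 5 lower, with a median of -0.10, beside the same 24.9% of all genes. Those higher were CDK6, EPHA2, EPHB4, EFNB1 and EFNB2, and none of them is among the 12 stem cell markers counted earlier. All 5 called lower are among those 12 markers, and none of the 12 that could be tested was called higher. OLFM4, SMOC2, MSI1 and TNFRSF19, at means of 0.0564 CPM or less, were too low to be tested. SLC12A2 (the basolateral Na-K-Cl cotransporter, -0.83 ± 0.07), LRIG1 (a restrainer of ErbB receptors, -0.59 ± 0.06) and PROM1 (-0.49 ± 0.04) were lower, and CDK6 (a cell cycle kinase, 0.46 ± 0.07) was higher.

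Of 12 enterocyte and colonocyte genes 5 were higher and 3 lower, with a median of 0.10, where 24.9% of all tested genes were called. KRT20, a keratin of differentiated colonocytes, averaged 506.0 ± 7.43 CPM at high dose and 294.0 ± 14.0 CPM at low dose (log2 fold change 0.78 ± 0.06, adjusted p = 4e-14). FABP1, a fatty acid carrier of enterocytes, was higher (1.58 ± 0.20), as was CEACAM7 (1.40 ± 0.33). FABP1 averaged only 4.53 ± 0.799 CPM at high and 1.52 ± 0.221 CPM at low dose. VIL1 of the same list went the other way, at 120.0 ± 3.47 CPM at high and 187.0 ± 8.02 CPM at low dose. CA2 also averaged less at high dose (10.2 ± 0.357 against 11.9 ± 1.21 CPM). GUCA2A, which encodes the peptide hormone guanylin, was lower (-1.35 ± 0.50, adjusted p = 0.04). CEACAM7 averaged 1.14 ± 0.23 CPM at high and 0.428 ± 0.0809 CPM at low dose, and GUCA2A 0.196 ± 0.0687 and 0.5 ± 0.0501 CPM. The fold changes of CEACAM7 and GUCA2A thus rest on few counts.

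**Figure D5:**
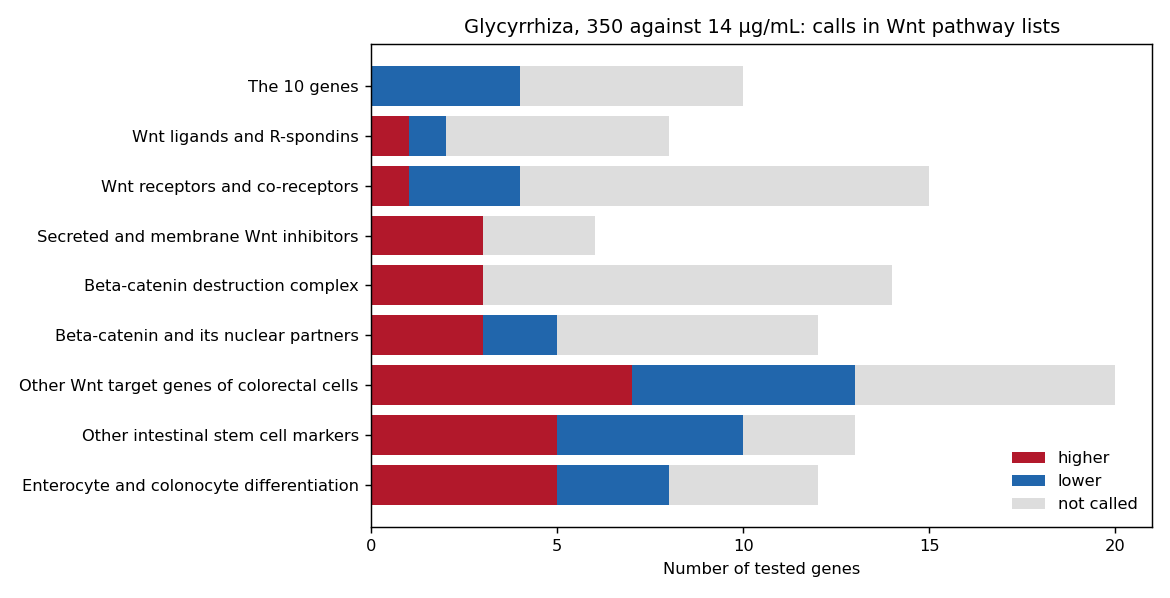
Number of tested genes called higher (red), called lower (blue) and not called (grey) between 350 and 14 µg/mL Glycyrrhiza, for the 10 genes and for 8 lists of Wnt pathway and differentiation genes. The 10 genes hold 4 lower and 0 higher calls, whereas the further Wnt targets hold 7 higher and 6 lower.

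Upstream of beta-catenin, genes were called in both directions with Glycyrrhiza, again beside 24.9% of all tested genes. Of 8 tested ligand and R-spondin genes 1 was higher (PORCN, which acylates Wnts, 0.49 ± 0.15) and 1 lower (WNT11, a Wnt ligand, -0.56 ± 0.08), with a median of -0.02. Of 15 receptor genes 1 was higher (FZD7, a Frizzled receptor, 0.22 ± 0.07) and 3 lower, with a median of -0.04. Those lower were ROR1 (-0.62 ± 0.05), PTK7 (-0.26 ± 0.05) and LGR4 (-0.16 ± 0.05), of which ROR1 and PTK7 are receptor-like kinases of Wnt signalling and LGR4 is an R-spondin receptor. Of 6 further inhibitors 3 were higher and 0 lower, with a median of 0.03, and NKD2, the paralogue of NKD1, was among them (0.88 ± 0.12, adjusted p = 1.2e-07). NKD2 averaged 6.96 ± 0.443 CPM at high dose and 3.76 ± 0.219 CPM at low dose.

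A list of 14 tested genes joined the destruction complex with its regulators DVL1, DVL2, DVL3, TNKS and TNKS2 (Dishevelled and tankyrase genes). Of these 14 genes 3 were higher and 0 lower, a share near the 24.9% of all genes called, with a median of 0.06. The count is thus not one of complex components alone. Among the 3 was the kinase gene CSNK1A1 (0.24 ± 0.05). Of 12 genes of beta-catenin and its nuclear partners 3 were higher and 2 lower, with a median of -0.03. TLE4 (a corepressor, 0.40 ± 0.12) and TCF7L2 (a T-cell factor, 0.26 ± 0.07) were higher, and PYGO2 (a beta-catenin cofactor, -0.20 ± 0.05) was lower.

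With the other extracts fewer genes were called between doses, over all tested genes (0.152% to 3.95%) as in the lists. Of the 15 receptor genes, for example, 0 were higher and 2 lower with Poria, 0 and 1 with Atractylodes, and 0 and 1 with Ginseng. ROR1 was lower at high dose with Poria (-0.23 ± 0.05), Atractylodes (-0.33 ± 0.05) and Ginseng (-0.23 ± 0.05) as well. PROX1, a transcription factor and Wnt target in colorectal tumours, was lower with Ginseng (-0.56 ± 0.08) and Atractylodes (-0.33 ± 0.08), and higher with Glycyrrhiza (0.27 ± 0.08). NOTUM, a secreted enzyme that inactivates Wnts, was lower with Ginseng (-1.03 ± 0.29, adjusted p = 0.044). It averaged only 0.568 ± 0.204 CPM with high-dose Ginseng, so this value rests on few counts.

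Likeness was measured for the 7 genes of at least 5 CPM as Pearson's r over 12 log2 fold changes against the own low dose (6 extracts, medium and high), among 10643 genes. It is a description, and the 12 values share their low-dose libraries in pairs. The pattern of EPHB3 was most like those of ARSJ (a sulfatase family gene, r = 0.985), NOTCH1 (the Notch receptor, r = 0.982) and VCL (the focal adhesion protein vinculin, r = 0.978). Their Glycyrrhiza log2 fold changes were -0.58, -0.30 and -0.22, against -0.99 for EPHB3. The EPHB3 value with high-dose Glycyrrhiza lay far from its 11 others (-0.23 to 0.17) and carries much weight in these r. With Ginseng and Atractylodes, where EPHB3 was at -0.23, VCL was at -0.00 and -0.02. LGR5 was most like DDX51 (an RNA helicase, r = 0.921), ERVMER34-1 (r = 0.897) and FANCD2 (a DNA repair protein, r = 0.890). The r for AXIN2 were 0.939 with MINDY4, 0.923 with HPF1 and 0.909 with PTCD1. Those for RNF43 were 0.936 with FAM83H, 0.934 with PHRF1 and 0.915 with MAP7, and those for ZNRF3 were 0.859 with GFM2, 0.857 with BCL2L11 and 0.843 with PYURF. SOX9 was most like SNX19 (r = 0.900), the mitochondrial gene MT-ND5 (r = 0.891) and KANSL1 (r = 0.884), and TCF7 like CPSF7 (r = 0.894), GTF2IP20 (r = 0.892) and ASAP1 (r = 0.885). For the genes that hardly changed with dose, these r rest on small differences.

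Angelica had 1 library per dose, so its values were compared with the vehicle range and not tested. AXIN2 had 80.6, 79.2 and 78.0 CPM at 12.8, 64 and 320 µg/mL, all below the vehicle libraries. SOX9 had 160.0, 168.0 and 170.0 CPM and TCF7 80.4, 78.2 and 81.9 CPM in the same order of doses, also all below vehicle. ZNRF3, at 124.0, 121.0 and 128.0 CPM against 125 CPM in vehicle, and RNF43, at 346.0, 334.0 and 357.0 CPM against 348, 375 and 368 CPM, were not all below vehicle. EPHB3 had 27.6, 24.0 and 24.8 CPM, and LGR5 had 38.8, 37.4 and 43.8 CPM. At 320 µg/mL the log2 ratio to the vehicle mean was 0.21 for EPHB3, 0.09 for LGR5 and 0.04 for ASCL2.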

How the data were processed

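RNA was extracted with QIAzol and sequenced as 100 bp paired-end MGI libraries, per the labels' protocols. The authors trimmed reads with Trim Galore 0.6.5 after FastQC 0.11.9, aligned them with STAR 2.7.3a to hg38 and deposited RSEM 1.3.3 expected counts, per the submitters' processing notes. Which gene annotation they counted on is not given there. The 60 columns of these libraries were used, and 213 other columns were not. Between 7.7% and 9.78% of the values in a library were not whole, and expected counts were rounded. Intervals cover the spread between libraries of 1 line.

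Genes were tested with edgeR 4.0.16 (R 4.3.3) by its quasi-likelihood test, with TMM factors (0.956 to 1.031) and filterByExpr, over 57 libraries in 19 groups (38 residual degrees of freedom), after the code had been tested on simulated data. Adjusted p-values are Benjamini-Hochberg over 16445 genes within each comparison, called under 0.05, and errors of log2 fold changes are SE. The 18 planned comparisons took high over low dose and high dose over vehicle for each extract, means over extracts, the difference between extracts, and 2 pairs of extracts. DESeq2 1.42.0, other scalings, blocks, a covariate and leaving out libraries were alternatives. The 10 genes and the pathway lists were chosen with earlier results of these data known. Of each list the text names up to 4 called genes with the largest absolute log2 fold change. Identifiers were matched to symbols for 56558 of 60675 rows.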

Additional observations from a re-analysis of the deposited data

Results flagged for a closer look

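The difference between high and low dose was not the same for all 6 extracts in 3 of the 10 genes, by edgeR's F test of the extract by dose term. The adjusted p-values were 1.7e-09 for EPHB3, 3.5e-05 for LGR5 and 0.041 for ASCL2. EPHB3 ranged from -0.99 with Glycyrrhiza to 0.17 with Sibjeondaebo-tang, LGR5 from -0.28 with Glycyrrhiza to 0.21 with Ginseng, and ASCL2 from -0.79 with Glycyrrhiza to -0.04 with Sibjeondaebo-tang. The high doses differ between extracts in µg/mL, and the 3 Glycyrrhiza high-dose libraries stand apart from the other libraries in a principal component analysis. Without Glycyrrhiza the adjusted p-values were 0.25 for EPHB3, 0.12 for LGR5 and 1.0 for ASCL2.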

How the results depend on the processing

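No called value changed sign under any alternative. Single genes called in the main fit were followed under the alternatives other than leaving out a library. Of these values 334 kept their call and 28 lost it. Calls gained under an alternative are not in these counts. Between high and low dose, the count for Atractylodes became 1 in place of 0 with no filter on low counts, with the replicate block and with the replicate block of set and number, the added gene being EPHB3 as lower. The count for Ginseng became 2 in place of 1 with the replicate block and with the replicate block of set and number, again through EPHB3, and 0 when the compared groups were fitted alone. With the replicate block AXIN2 was also called lower with Glycyrrhiza (-0.10, adjusted p = 0.035). The labels do not say what libraries of the same number share. In no comparison did all same-numbered libraries correlate above 0.1, though in 2 of them (Sibjeondaebo-tang and Ginseng between doses) all 3 libraries correlated best with their own number. For Ginseng replicate 3 that correlation was 0.189. SOX9 had 173.0, 175.0 and 178.0 CPM in Ginseng replicate 3 at high, medium and low dose, against 144.0 to 152.0 CPM in replicates 1 and 2. Against vehicle, the mitochondrial share as a covariate gave 3 in place of 6 for Atractylodes and 3 in place of 5 for Ginseng, and fitting the compared groups alone also gave 3 for Ginseng. The difference between extracts called 0 in place of 3 without Glycyrrhiza. For ASCL2 that call was also lost with no filter (adjusted p = 0.13) and with DESeq2 (0.096).

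Leaving out 1 library at a time gave counts of 0 to 1 for Ginseng between doses, 3 to 6 for Atractylodes against vehicle and 3 to 5 for Ginseng against vehicle. It gave 3 to 5 for Glycyrrhiza between doses and 2 to 3 for the difference between extracts. The causes of these changes were not tested. Counts of 12 to 41 per library limit NKD1, whose call with Glycyrrhiza had an adjusted p of 0.055 without the filter.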
